A study of Mus musculus and Rattus norvegicus with 30 samples.

Results

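The genes described here were the cytochrome P450 genes (Cyp followed by a number) and the glutathione transferase genes (Gsta, Gstm, Gstp, Gstt, Gsto, Gstk and Mgst followed by a number) of mouse and rat dorsal root ganglia (DRG). Members were chosen by symbol alone, with Cyp51 and names ending in -ps left out, and they made up 218 of 93596 features in the count tables of both species. The mouse table held 123 members (99 P450 genes, 21 cytosolic or kappa class transferase genes and 3 Mgst genes) of 54315 features, and the rat table held 95 (71, 21 and 3) of 39281. In mouse 25 members were listed at 0 in every library, 42 had counts but fell under the filter on low counts, and 56 were tested. In rat 27 were listed at 0, 27 fell under the filter, and 41 were tested. The mouse P450 count included Cyp4x1os, which is an opposite-strand RNA and not an enzyme gene.

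RNA-sequencing was performed on ganglia of 2 inbred wild-type mouse strains, BALB/c and B10.D2, after spared nerve injury (SNI), a lesion that cuts the common peroneal and sural nerves but leaves the tibial nerve whole, or after sham surgery. The mice were bought at 4 to 8 weeks of age, and each library came from the L3 and L4 ganglia of 1 animal 28 days after surgery, giving 6 BALB/c sham (3 females, 3 males), 4 BALB/c SNI (2 females, 2 males), 5 B10.D2 sham (2 females, 3 males) and 5 B10.D2 SNI libraries (3 females, 2 males). Male Wistar rats had the L5 spinal nerve ligated and transected (SNT) or had sham surgery, and each of the 4 sham and 4 SNT libraries was made from the L5 ganglia of 3 pooled animals 21 days after surgery. The study sought the long non-coding RNAs of the DRG, their cell-type specificity and their change after nerve injury, with annotated genes profiled alongside. It compared the mouse strains, which differ in pain-related hypersensitivity after the injury.

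P450 enzymes are haem proteins that insert an oxygen atom into their substrate, using electrons that cytochrome P450 reductase passes on in the endoplasmic reticulum or that ferredoxin passes on in mitochondria. Some families clear drugs and other foreign compounds, chiefly in the liver, whereas others act on signalling lipids. The Cyp26 enzymes degrade retinoic acid, and some Cyp2j enzymes form epoxides of arachidonic acid. Cyp4 enzymes hydroxylate the ends of fatty acid chains, and Cyp2r1 hydroxylates vitamin D. Glutathione transferases couple the tripeptide glutathione to electrophiles, among them the reactive aldehydes formed when membrane lipids are oxidised, and the microsomal Mgst proteins are a separate membrane-bound family with related activities. Sensory ganglia contain neurons, satellite glia, Schwann cells, vessels and connective tissue, so a level in these libraries is an average over all of them.

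Depth was 29989963 to 41881331 counts per library in mouse and 11954612 to 17887909 in rat, so that 3 counts, taken as the floor of a library, correspond on the CPM scale (a gene's count scaled to the size of its library) to 0.0716 to 0.100 CPM in mouse and 0.168 to 0.251 CPM in rat. The neuronal markers of the DRG were high in every mouse library, with 9 of 9 counted and a sum of 9735 to 13711 CPM. Of the 9, 5 had counts in rat, where Tubb3, Rbfox3 and Nefl were listed at 0 and the sum was 3781 to 8819 CPM. Axon injury markers separated the surgeries in mouse, where 10 markers summed to 223 to 291 CPM in sham and 350 to 898 CPM in SNI, the lowest being B10.D2 SNI library 76, beside 577 to 676 CPM in the other 4 of its group. In rat the marker sum was 367 to 408 CPM in sham libraries 1 to 3 and 1347 to 1736 CPM in SNT libraries 2 to 4, and sham library 4 (975 CPM) and SNT library 1 (1215 CPM) lay between them, as they also did on the first principal component, so rat results are given with and without both. Many rat genes were listed at 0 (52.2% of 32623 annotated features against 25.1% of 49585 in mouse), among them the marker genes Atf3, Adipoq and Rgs5. Of the 27 rat members at 0, 14 shared a symbol with a mouse member and 6 of those had at least 1 CPM in mouse, the largest being Mgst3 (mean over the mouse libraries 64.2 CPM), Cyp4v3 (20.6 CPM) and Gstt1 (14.4 CPM). For those 6 genes a rat level of 0 is therefore only a listing. The hepatocyte markers Alb, Apoa1, Ttr, Serpina1a and Ahsg together reached 0.227 to 1.24 CPM in the mouse libraries.

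The upstream sequences of 4 members are shown, chosen for the expression results of these members. Cyp1b1 and Cyp26a1 were called after SNI in both mouse strains, and Gstm1 and Gstm2 are neighbours on chromosome 3 whose balance differed between strains. They are the reference sequence (RefSeq, build GRCm38.p6) before the start site, trimmed where an annotated exon begins, from chr17:79715062-79715311 (minus strand), chr19:37697558-37697797 (plus strand), chr3:108017974-108018223 (minus strand) and chr3:107986454-107986670 (minus strand) in this order. Letters are written 5′ to 3′ on the gene's strand, and capitals mark a motif match.
Cyp1b1: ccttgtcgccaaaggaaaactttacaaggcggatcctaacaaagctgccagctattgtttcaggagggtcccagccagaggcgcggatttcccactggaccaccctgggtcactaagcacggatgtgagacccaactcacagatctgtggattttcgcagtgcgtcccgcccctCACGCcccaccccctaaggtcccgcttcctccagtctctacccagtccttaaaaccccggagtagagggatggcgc
Cyp26a1: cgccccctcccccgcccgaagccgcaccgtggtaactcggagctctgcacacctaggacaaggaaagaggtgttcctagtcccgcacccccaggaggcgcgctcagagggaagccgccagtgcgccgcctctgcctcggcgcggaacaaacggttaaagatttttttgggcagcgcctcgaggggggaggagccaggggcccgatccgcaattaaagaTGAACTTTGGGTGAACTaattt
Gstm1: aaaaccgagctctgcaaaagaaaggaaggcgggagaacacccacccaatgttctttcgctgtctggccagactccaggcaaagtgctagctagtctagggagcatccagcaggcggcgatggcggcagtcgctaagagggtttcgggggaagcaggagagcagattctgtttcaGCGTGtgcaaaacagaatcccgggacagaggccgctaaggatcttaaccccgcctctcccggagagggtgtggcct
Gstm2: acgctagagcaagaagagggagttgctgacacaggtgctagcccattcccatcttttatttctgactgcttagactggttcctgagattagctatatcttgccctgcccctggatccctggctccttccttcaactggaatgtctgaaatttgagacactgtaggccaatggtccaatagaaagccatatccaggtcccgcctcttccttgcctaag

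Windows of 300 bases (250 before and 50 after the start site) were found for 99 of 123 mouse members and were searched on both strands. The core of the aryl hydrocarbon receptor site, GCGTG, was present in 22 of 99 members (22.2%) and in 32.4% of all 32851 windows, and Cyp1b1 and Gstm1 each held a match. The antioxidant response core, TGACNNNGC, was present in 9 of 99 members (9.09%) and in 12.4% of all windows, and none of the 4 printed genes held it. A direct repeat of the retinoid receptor core (AGGTCA, with AGTTCA allowed, likewise GGGTCA and likewise GGTTCA) with 5 bases between the copies was present in 32 of all windows (0.0974%), and Cyp26a1 was the member that held it, read on the opposite strand and ending 16 bases before the start site. Cyp26a1 is known to be switched on by retinoic acid through such repeats. These matches describe the reference sequence, not the sequence of either strain, and were not related to the expression values by a test.

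Levels can be compared between mouse genes once they are divided by exon length. Microsomal transferase Mgst3, which also reduces lipid peroxides, had the highest sham level per length, 64.1 ± 8.5 CPM per kb of exon (SD, n = 11, both strains). Gstm5, a mu class transferase, followed with 51.8 ± 3.0 CPM per kb, and its range did not overlap that of the next gene. Cyp2j6 was the highest P450 gene at 25 ± 0.7 CPM per kb. Gstp1 (18.4 ± 1.6 CPM per kb), Gsta4 (17.3 ± 4.3 CPM per kb) and Cyp2j9 (15.7 ± 1.1 CPM per kb) followed, then Gstm1 at 14 ± 1.9 CPM per kb, and all of these means lay within 1 SD of that of Gsta4. The last 3 of the 10 highest were Gsto1 (11.3 ± 1.4 CPM per kb), the orphan P450 Cyp20a1 (10.8 ± 0.57 CPM per kb) and Gstm2 (10.6 ± 3.9 CPM per kb), whose ranges overlapped. In all, 43 mouse members had a mean of at least 1 CPM over the 20 libraries, 20 had at least 10 CPM and 5 had at least 50 CPM. In the plot of sham levels per kb, the values of Gstm2 and Gsta4 fall into a higher BALB/c and a lower B10.D2 group.

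**Figure D1:**
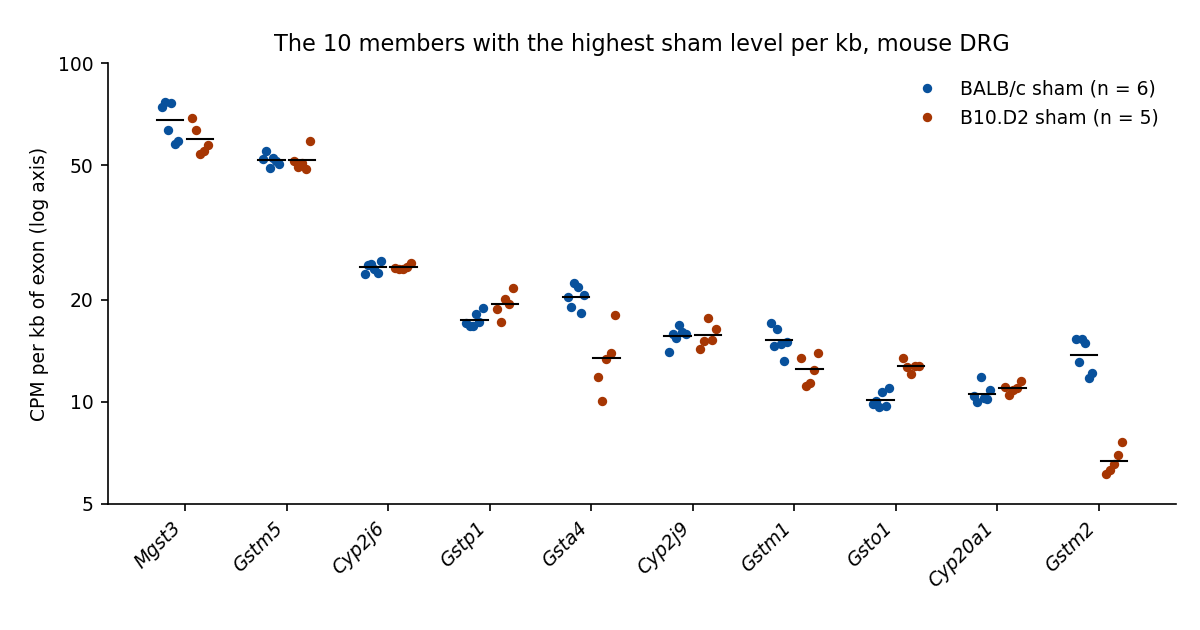
Level of the 10 members with the highest mean in mouse sham libraries, in CPM per kb of exon on a log axis. Each point is 1 library (6 BALB/c, 5 B10.D2), and the black line is the mean of the strain. Mgst3 and Gstm5 stand above the other members, and Gstm2 and Gsta4 are lower in B10.D2.

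Rat levels have no gene length here and are therefore given per gene only, as CPM in the 4 sham libraries, without an order between genes. Gstp1 stood at 151 ± 14.7 CPM (SD, n = 4), the mu class genes Gstm4, Gstm2 and Gstm1 at 95.1 ± 21.6, 93.9 ± 16.6 and 90.9 ± 17.5 CPM, Gsto1 at 82.7 ± 7.7 CPM, Mgst1 at 81.1 ± 9.0 CPM and Gsta1 at 78.3 ± 13.5 CPM. Among the P450 genes Cyp1b1 stood at 124 ± 48.1 CPM, Cyp2j10 at 53.4 ± 2.7 CPM and Cyp4x1 at 51.5 ± 5.4 CPM. Summed over all members, P450 genes took 408 to 441 CPM of a mouse sham library and transferase genes 276 to 335 CPM.

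The strain comparison asked which members differed between uninjured ganglia of B10.D2 and BALB/c mice. Reads of both strains were aligned to the same reference, mm10, and the part of alignment in the strain differences was not tested. In sham libraries 18 of 56 tested members (32.1%) were called at an adjusted p under 0.05, against 21.6% of all 24685 tested features. Of these, 9 were higher in B10.D2 (background 11.5%) and 9 lower (background 10%), and the median log2 difference of the members was -0.02, beside -0.01 over all features. The transferases Gstm2 and Gsta4 and the P450 genes Cyp2j13, Cyp4b1, Cyp26a1 and Cyp26c1 were lower in B10.D2. Cyp4x1, Cyp26b1, Cyp2d22, Cyp2r1 and Gsto1 were higher.

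Gstm2, a mu class transferase on chromosome 3 (107981702 to 107986453, minus strand, mm10), had a lowest, median and highest level of 19.8, 23.5 and 25.8 CPM in the 6 BALB/c sham libraries. The 5 B10.D2 sham libraries held 10.3, 10.6, 11, 11.7 and 12.8 CPM. All B10.D2 libraries lay below all BALB/c libraries, and the level was 2.04-fold lower (log2 -1.03 ± 0.08 SE, adjusted p = 1.8e-09). After SNI the BALB/c libraries held 25.2, 25.9, 24.8 and 23.7 CPM and the B10.D2 libraries 13.4, 12.9, 13.3, 11.3 and 13.4 CPM, again with no overlap (log2 -0.96 ± 0.08, adjusted p = 2.0e-08). Its neighbour Gstm1, also of the mu class, differed less, with means of 22.4 CPM in BALB/c and 18.4 CPM in B10.D2 sham libraries (log2 -0.28 ± 0.08, adjusted p = 0.015) and overlapping values, and it was not called in SNI libraries (log2 -0.08 ± 0.09, adjusted p = 0.58).

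The balance of these neighbours was taken within each library, where depth and scaling cancel, a comparison chosen after the values were seen. The mean log2 ratio of Gstm2 to Gstm1 was 0.04 ± 0.10 (SD, n = 6) in BALB/c sham and -0.70 ± 0.14 (SD, n = 5) in B10.D2 sham libraries. The ranges did not overlap, and the difference was -0.74. In SNI libraries the ratio was 0.26 ± 0.08 (n = 4) against -0.61 ± 0.18 (n = 5), a difference of -0.87. Since the pair was chosen for its pattern, these ratios are given as a description, without a test. Of all 100-base stretches in annotated transcripts, 0.357% of those of Gstm2 and 5.86% of those of Gstm1 also occurred in another gene, so most of their sequence is unique to each gene.

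Cyp2j13 showed the largest strain difference of any member named by the rule. It lies on chromosome 4 (96027534 to 96077546, minus strand) in a cluster of Cyp2j genes. The BALB/c sham libraries held 8.88 CPM at the lowest, 10.4 at the median and 13.4 at the highest, and the B10.D2 sham libraries 2.81, 2.17, 2.64, 2.29 and 2.75 CPM. The groups lay far apart (4.33-fold lower in B10.D2, log2 -2.11 ± 0.14, adjusted p = 2.9e-10). In SNI libraries the values were 12.5, 9.78, 10.9 and 13.2 CPM in BALB/c and 2.07, 2.65, 2.04, 2.86 and 1.37 CPM in B10.D2 (log2 -2.37 ± 0.15, adjusted p = 1.8e-10). The adjacent Cyp2j12 was not called (log2 -0.08 in sham and -0.14 in SNI), and the log2 ratio of Cyp2j13 to Cyp2j12 differed by -2.01 in sham and -2.29 in SNI, again a pair chosen after the values were seen and given as a description. Neither gene shared a 100-base stretch with another gene.

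Gsta4, an alpha class transferase with high activity towards the aldehydes of lipid peroxidation, was lower in B10.D2, with a sham mean of 25.9 ± 2.0 CPM (SD, n = 6) in BALB/c and 17.1 ± 3.8 CPM (SD, n = 5) in B10.D2 (log2 -0.59 ± 0.11, adjusted p = 0.00032), and every B10.D2 library lay below every BALB/c library. In SNI libraries the difference was also -0.59 on the log2 scale (adjusted p = 0.00085). The log2 ratio of Gsta4 to Gsta3, a gene of the same class on another chromosome, differed by -0.44 in sham and -0.41 in SNI libraries. It was 3.99 ± 0.31 (SD, n = 6) in BALB/c and 3.55 ± 0.57 (n = 5) in B10.D2 sham libraries. In SNI libraries it was 4.26 ± 0.62 (n = 4) and 3.84 ± 0.19 (n = 5). Unlike the ratios above, it overlapped between the strains in sham and in SNI. This is likewise a description of a pair chosen afterwards. The omega class transferase Gsto1, a thioltransferase that also reduces dehydroascorbate, was higher in B10.D2 (20.6 ± 1.1 against 25.8 ± 1.0 CPM in sham, log2 0.32 ± 0.05, adjusted p = 5.8e-05).

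**Figure D2:**
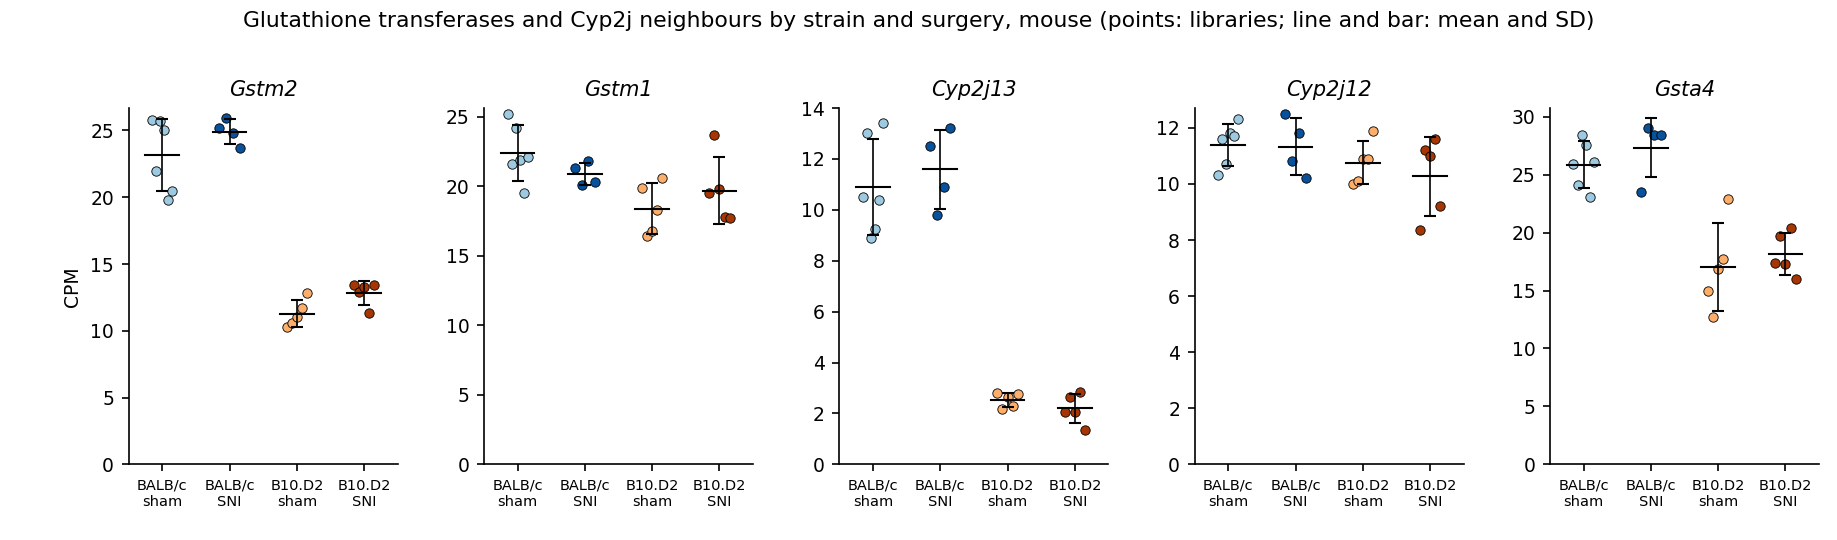
Level in CPM of Gstm2, Gstm1, Cyp2j13, Cyp2j12 and Gsta4 in each mouse library by strain and surgery, with mean and SD. Gstm2 and Cyp2j13 are separated by strain in sham and in SNI libraries, and the neighbours Gstm1 and Cyp2j12 overlap between the strains.

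The Cyp26 genes, whose products clear retinoic acid, were divided between the strains. Cyp26b1 was higher in B10.D2: the BALB/c sham libraries ranged from 3.37 CPM through a median of 4.77 to 6.66 CPM, and the B10.D2 sham libraries held 9.09, 8.56, 6.3, 8.7 and 7.65 CPM (log2 0.67 ± 0.18, adjusted p = 0.0088). The groups overlapped in 1 B10.D2 library. In SNI libraries Cyp26b1 stood at 3.4, 4.89, 3.68 and 6.47 CPM in BALB/c and at 6.84, 6.18, 6.76, 7.25 and 9.21 CPM in B10.D2 (log2 0.65 ± 0.20, adjusted p = 0.025). Cyp26a1 and Cyp26c1, which lie next to each other on chromosome 19, were low and went the other way. They fell under the mean of 1 CPM set for naming and, like Cyp2r1, Gstt4, Cyp2c65 and Cyp2c55 further on, were chosen after their values were seen. Cyp26a1 held 0.836, 0.919 and 1.23 CPM at the lowest, median and highest of BALB/c sham and 0.292, 0.392, 0.19, 0.239 and 0.241 CPM in B10.D2 sham, or 207 against 49 counts in all (log2 -1.83 ± 0.25, adjusted p = 9.1e-06). Cyp26c1 held 1.13 to 1.67 CPM in BALB/c and 0.507 to 0.745 CPM in B10.D2 sham libraries (log2 -1.16 ± 0.20, adjusted p = 0.00013). Neither overlapped between strains.

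Fatty acid hydroxylases of the Cyp4 family also went in both directions. Cyp4x1, an enzyme of the brain and vessels, was higher in B10.D2 (25.7 ± 1.7 against 37.6 ± 1.7 CPM in sham, log2 0.54 ± 0.05, adjusted p = 9.8e-08) with no overlap. Cyp4b1 held 1.37, 2.56 and 4.63 CPM at the lowest, median and highest of BALB/c sham and 2.48, 1.21, 1.2, 0.718 and 1.52 CPM in B10.D2 sham, and the groups overlapped (log2 -0.99 ± 0.32, adjusted p = 0.028). The sham call was lost in 5 of 20 fits that left out 1 library. Its SNI values, 8.17, 6.04, 4.98 and 3.69 CPM in BALB/c and 3.04, 2.6, 2.64, 1.66 and 2.1 CPM in B10.D2, did not overlap (log2 -1.24 ± 0.32, adjusted p = 0.0070). Cyp4f18, which hydroxylates leukotriene B in leukocytes, was higher in B10.D2 sham libraries, with 0.228, 0.403 and 1.04 CPM at the lowest, median and highest of BALB/c and 1.67, 1.24, 1.22, 1.41 and 1.38 CPM in B10.D2 (log2 1.36 ± 0.37, adjusted p = 0.011). The macrophage markers also lay apart in part, with sums of 61.8 to 147 CPM in BALB/c and 115 to 132 CPM in B10.D2 sham libraries, and their part in the Cyp4f18 result was not tested. Cyp4f39 (log2 0.30) and Cyp4v3 (log2 0.23) were higher in B10.D2 sham libraries by smaller amounts, and their calls were lost in 4 and 8 of 20 fits that left out 1 library.

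Of the P450 genes of other families, Cyp2d22 was higher in B10.D2 (12.7 ± 0.93 against 16.5 ± 1.1 CPM, log2 0.37 ± 0.06, adjusted p = 0.00020), Cyp3a13 was lower (log2 -0.58, adjusted p = 0.047) and Cyp1b1 slightly lower in B10.D2 (log2 -0.21 ± 0.07, adjusted p = 0.032). Cyp2r1, the vitamin D hydroxylase, was 1.92-fold higher in B10.D2 sham libraries (0.672 ± 0.087 against 1.29 ± 0.22 CPM, adjusted p = 0.00036), and its groups did not overlap. Cyp2c65 was higher at a very low level (0.143 against 0.329 CPM). The call of Cyp3a13 was kept in 7 of 20 fits that left out 1 library each, and that of Cyp1b1 in 15.

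In SNI libraries, which share no animals with the sham libraries, 19 of 56 members (33.9%) were called between strains, against 20.8% of all features, with 10 higher in B10.D2 (background 10.9%) and 9 lower (background 9.98%), and a median log2 difference of -0.05 beside -0.01 over all features. Of the members called, 15 were called in sham and in SNI libraries, all 15 with the same sign (8 higher and 7 lower in B10.D2). They made up 83.3% of the sham calls and 78.9% of the SNI calls, beside 69.6% and 72% for all features. Of the 3702 features called in both, 3701 had the same sign. The SNI call of Cyp2c65, 1 of the 15, was kept in 4 of 20 fits that left out 1 library and in 3 of 6 other settings, DESeq2 being among those that lost it. Cyp3a13, Cyp4f18 and Gstm1 were called in sham libraries only, and Cyp2c55, Cyp2j6, Cyp2j9 and Cyp2s1 in SNI libraries only, and none of these 7 was called for the interaction of strain and surgery. In SNI libraries Cyp2s1 was higher in B10.D2 (log2 0.54 ± 0.12, adjusted p = 0.0015), and Cyp2j9 and Cyp2j6 were lower (log2 -0.20 and -0.13, adjusted p = 0.037 and 0.017). The Cyp2j9 call was lost in 6 of 20 fits that left out 1 library and in 2 of 7 other settings, and the Cyp2j6 call in 1 and 2.

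**Figure D3:**
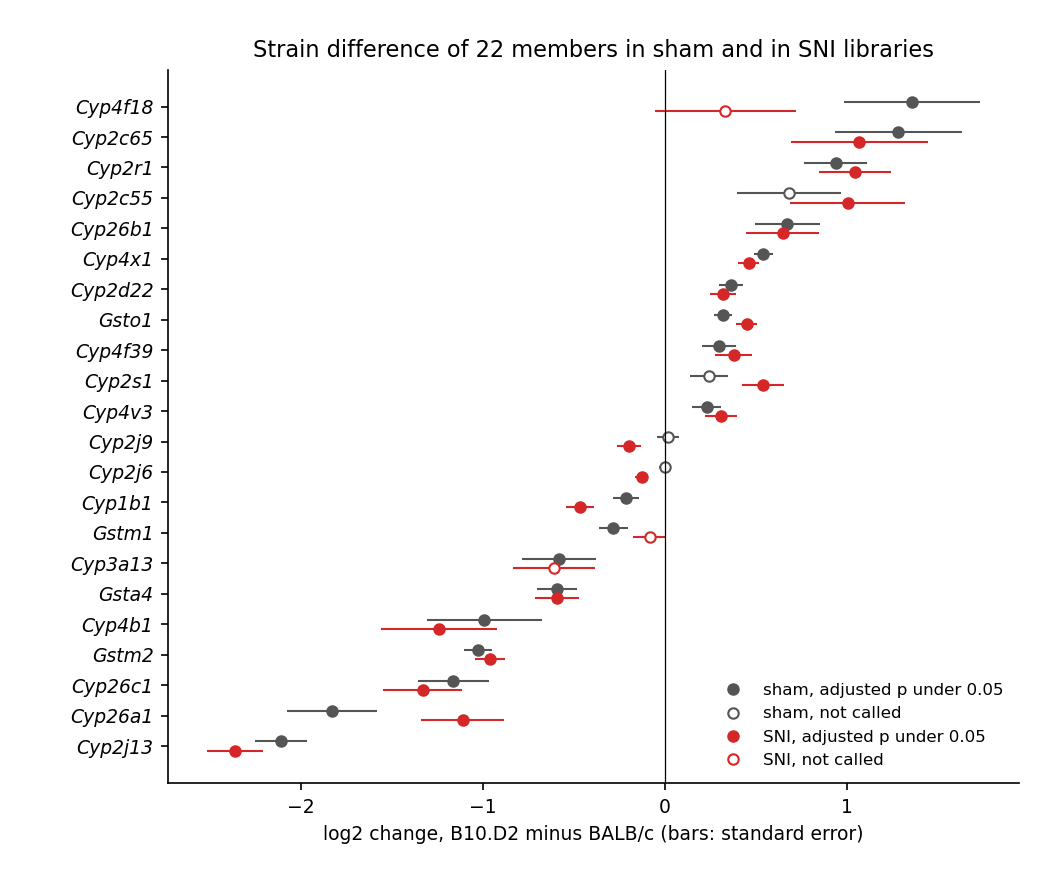
Strain difference of the 22 members called in sham or SNI libraries, as log2 change of B10.D2 minus BALB/c with its standard error. Filled points were called, and open points were not. The 15 members called in sham and in SNI lie on the same side of 0 in each.

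Markers of the vessel wall also differed between the strains. Of 6 mural cell markers 5 were lower in B10.D2 in sham and in SNI libraries (Acta2 log2 -1.43, Myh11 -1.05, Kcnj8 -0.96, Notch3 -0.67 and Pdgfrb -0.28 in sham), and Rgs5, the most abundant, was not called, so that the summed level was 313 to 452 CPM in BALB/c and 292 to 345 CPM in B10.D2 sham libraries. Other marker lists held called genes too. In B10.D2 sham libraries the macrophage markers Adgre1 and Aif1 (log2 0.70 and 0.55) and the neuronal markers Isl1 and Nefl (0.47 and 0.18) were higher, and Isl1 was also higher in SNI. Of 6 fibroblast markers Mgp, Dcn and Lum were higher (0.95, 0.42 and 0.32) and Col1a1 lower (-0.52) in sham, as they also were in SNI. The satellite glia markers Kcnj10 and Lgi4 were lower in sham (-1.22 and -0.44) and in SNI (-1.35 and -0.70), with Cdh19 lower in SNI (-0.27), and of the endothelial markers Pecam1 and Tie1 were lower in sham and Tie1 and Cldn5 in SNI, by 0.25 to 0.37 on the log2 scale. Plin1, 1 of 4 adipocyte markers, was lower in B10.D2 sham libraries (means of 6.27 CPM in BALB/c and 2.30 CPM in B10.D2), with 0 called in SNI. Of 5 skeletal muscle markers Myh4, Ckm and Acta1 were lower in B10.D2 sham libraries (-4.07, -3.95 and -2.64) and 0 were called in SNI. The sum of these 5 was 1325 CPM in BALB/c sham library 50 and 9.31 to 94 CPM in the other 5 of its group, 522 CPM in BALB/c SNI library 49 and 21.6 to 41.2 CPM in the other 3, and 8.46 to 42.6 CPM in the B10.D2 libraries. Without BALB/c sham library 50, 18 members were called between strains in sham (16 of them among the 18 above) and 7 in BALB/c SNI (6 shared). Without BALB/c SNI library 49, 16 were called between strains in SNI (all 16 shared) and 6 in BALB/c SNI (5 shared). The part of these markers in the strain differences was not tested. In bulk RNA, fewer cells of a type and less RNA per cell cannot be told apart. Cyp2e1, the ethanol-oxidising P450 of liver and fat, varied widely between libraries of the same group, from 2.54 to 24.4 CPM in BALB/c sham, 2.88 to 27.5 CPM in BALB/c SNI, 1.4 to 17.5 CPM in B10.D2 sham and 1.47 to 7.17 CPM in B10.D2 SNI. This gene, chosen after its values were seen, was not called between strains (log2 -1.40 ± 0.63, adjusted p = 0.13). The adipocyte markers Adipoq, Plin1, Cfd and Lep, all 4 of which were counted, summed to 18.7 to 56.2, 11.4 to 29.8, 4.95 to 41.9 and 6.32 to 37.5 CPM in the same groups. BALB/c sham library 50 and SNI library 49, which had the highest muscle sums, held the 24.4 and 27.5 CPM of Cyp2e1. B10.D2 sham library 58 held the 17.5 CPM, beside a muscle sum of 14.5 CPM. The part of either marker list in the spread of Cyp2e1 was not tested.

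The injury comparison asked which members changed in ganglia after SNI, which cuts only part of their axons. In BALB/c mice 7 of 56 members (12.5%) were called between SNI and sham, against 9.69% of all features, with 6 higher (background 4.82%) and 1 lower (background 4.87%). In B10.D2 mice 3 members (5.36%) were called, against 4.58% of all features, and all 3 were higher (background 2.1%), none lower (background 2.48%). The median log2 change of the members was 0.04 in BALB/c and 0.06 in B10.D2, beside 0.00 and 0.01 over all features. Cyp1b1, Cyp26a1 and Gstt4 rose in both strains. Cyp2j9, Cyp2j6 and Cyp4b1 rose and Gsto1 fell in BALB/c. The summed level of all P450 members was 411 to 441 CPM in BALB/c sham and 491 to 508 CPM in SNI, and 408 to 434 against 452 to 473 CPM in B10.D2, while that of the transferases overlapped between surgeries in each strain.

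Cyp1b1 oxidises retinoids, steroids and aromatic hydrocarbons and is a known target of the aryl hydrocarbon receptor. Its level in BALB/c was 43.0, 48.8 and 53.8 CPM at the lowest, median and highest of 6 sham libraries and 82.1, 92, 96.7 and 81.2 CPM in SNI. It was 1.81-fold higher after injury (log2 0.85 ± 0.07, adjusted p = 1.6e-07). In B10.D2 the sham libraries held 36.6, 41.1, 40.6, 49.7 and 40.2 CPM and the SNI libraries 68.5, 59.4, 72.0, 61.3 and 59.9 CPM (1.51-fold, log2 0.60 ± 0.07, adjusted p = 3.7e-05). No SNI library overlapped a sham library of its strain, and the call held in every alternative and without any single library in both strains. After SNI the level was lower in B10.D2 than in BALB/c (log2 -0.47 ± 0.08, adjusted p = 9.1e-05), and the interaction of strain and surgery was not called (log2 -0.25 ± 0.10, unadjusted p = 0.024, adjusted p = 1).

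Cyp26a1 rose from a low level in both strains. BALB/c SNI libraries held 2.27, 1.4, 1.14 and 1.42 CPM, against 0.836 to 1.23 CPM in sham, and 1 SNI library lay within the sham range (log2 0.70 ± 0.21, adjusted p = 0.040). That call was lost with each strain fitted alone and in 10 of 20 fits that left out 1 library. B10.D2 SNI libraries held 0.558, 0.434, 1.04, 0.669 and 0.784 CPM and lay above all 5 sham libraries (0.19 to 0.392 CPM), a 2.67-fold rise (log2 1.42 ± 0.27, adjusted p = 0.0025) that was called in 20 of 20 such fits. Cyp26b1 did not pass the test in either strain (log2 -0.13 and -0.15).

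Gstt4, a theta class transferase, had almost no counts in sham ganglia. The 6 BALB/c sham libraries held 5 counts in all and the 4 SNI libraries 42 (adjusted p = 0.0013), and the 5 B10.D2 sham libraries held 7 counts and the 5 SNI libraries 41 (adjusted p = 0.027). Levels reached 0.369 CPM in BALB/c SNI and 0.336 CPM in B10.D2 SNI, and the sham values were at 0 or near the floor, so no fold change is given. In BALB/c no SNI library overlapped sham, and in B10.D2 1 SNI library (0.051 CPM) lay within the sham range. The B10.D2 call was lost in 7 of 20 fits that left out 1 library.

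Cyp2j9 and Cyp2j6 are genes of the Cyp2j group with high levels in the ganglion. Cyp2j9 stood at 47.0, 53.0 and 56.4 CPM at the lowest, median and highest of BALB/c sham and at 59.1, 76.7, 69.6 and 72.3 CPM in SNI, with no overlap (log2 0.40 ± 0.06, adjusted p = 0.00021). In B10.D2 it moved from 52.6 ± 4.3 to 61.1 ± 5.5 CPM and did not pass the test (log2 0.19 ± 0.06, adjusted p = 0.097). Cyp2j6 rose by 0.17 ± 0.04 on the log2 scale in BALB/c (89.9 ± 3.3 to 101 ± 3.6 CPM, adjusted p = 0.0034), and its value in B10.D2 was 0.04 ± 0.04 (adjusted p = 0.62). The interaction gave unadjusted p = 0.026 for Cyp2j9 and 0.019 for Cyp2j6 and adjusted p = 1 for each.

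Cyp4b1 rose in BALB/c from the sham values given above to 8.17, 6.04, 4.98 and 3.69 CPM (log2 1.01 ± 0.30, adjusted p = 0.035). The groups overlapped, and the call was lost with each strain fitted alone and in 7 of 20 fits that left out 1 library. Gsto1 was the member that fell, with 19.5, 20.2 and 22.2 CPM at the lowest, median and highest of BALB/c sham and 19.2, 16.4, 18.8 and 17.2 CPM in SNI, without overlap but by a small amount (log2 -0.20 ± 0.05, adjusted p = 0.022). That call was lost in 3 of 20 fits that left out 1 library and in 2 of 7 other settings. In B10.D2 the Gsto1 value was -0.07 ± 0.05 (adjusted p = 0.55). Mgst3, the member with the highest level per length, came close to the threshold in both strains without passing it (log2 -0.27 ± 0.09, adjusted p = 0.053 in BALB/c, and -0.28 ± 0.09, adjusted p = 0.068 in B10.D2). Cell type markers moved with the injury as well. Of 9 neuronal markers 2 fell after SNI in both strains, Nefl (BALB/c log2 -0.43, B10.D2 -0.47) and Snap25 (-0.51, -0.43), and the neuronal sum was 11083 to 12420 CPM in BALB/c sham and 9761 to 11244 in SNI, and 11569 to 13711 and 9735 to 11921 CPM in B10.D2. The satellite glia marker Cdh19 (0.54 and 0.30) and the fibroblast marker Lum (0.45 and 0.52) rose in both strains, and Lgi4 (0.52), Cldn5 (0.28), Cd68 (0.62) and Csf1r (0.47) rose in BALB/c. The 6 fibroblast markers summed to 968 to 1401 CPM in BALB/c sham and 1138 to 1783 CPM in SNI, and to 1213 to 1280 and 1156 to 1771 CPM in B10.D2. The 6 macrophage markers summed to 61.8 to 147 and 102 to 151 CPM in BALB/c and to 115 to 132 and 112 to 173 CPM in B10.D2. The part of these markers in the injury results was not tested.

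**Figure D4:**
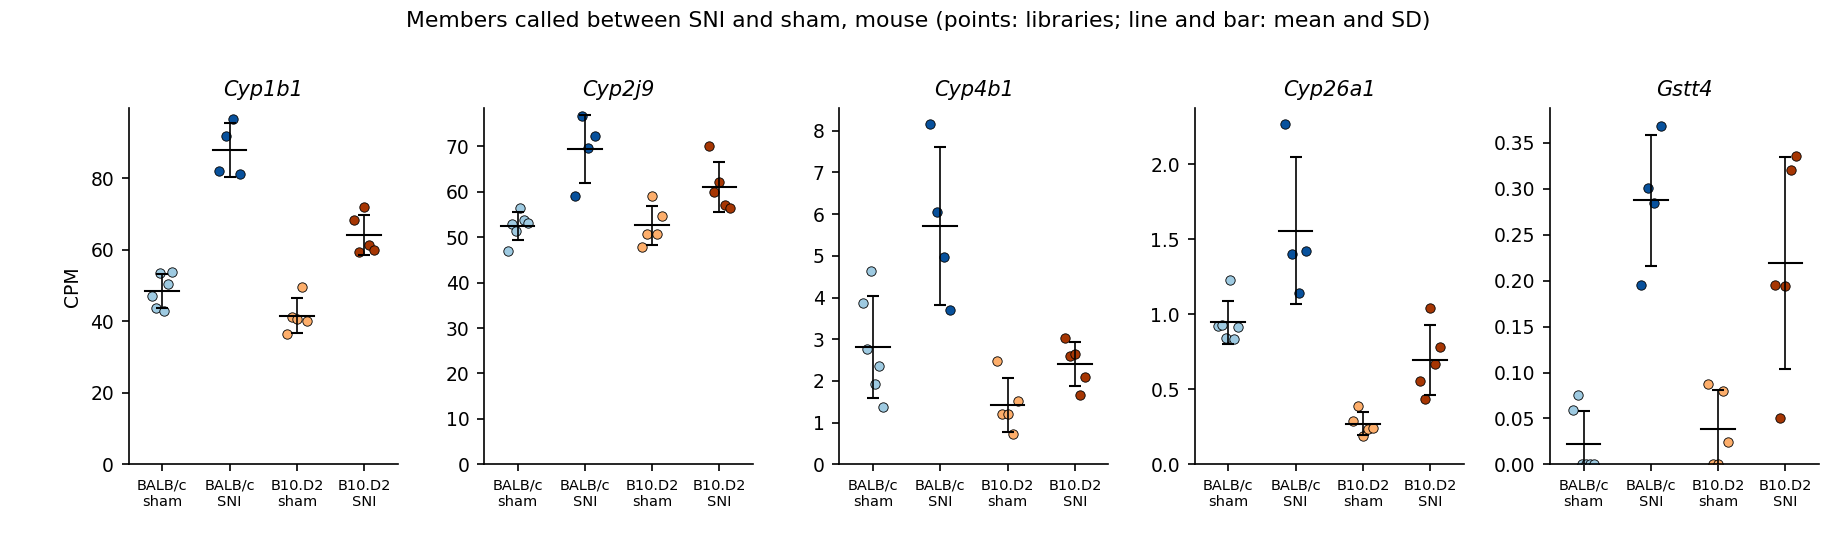
Level in CPM of Cyp1b1, Cyp2j9, Cyp4b1, Cyp26a1 and Gstt4 in each mouse library by strain and surgery, with mean and SD. SNI libraries lie above sham libraries of the same strain for Cyp1b1 in both strains, for Cyp2j9 in BALB/c and for Cyp26a1 in B10.D2.

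Whether the injury response differed between the strains was asked of the interaction term. None of the 56 members was called by edgeR, against 0.0243% of all features, and 5 had an unadjusted p under 0.05 (Cyp2j6, Cyp2j9, Cyp1b1, Gstk1 and Cyp26a1). DESeq2 called none either. Of these 5, Cyp2j6, Cyp2j9, Cyp1b1 and Gstk1 had the lower value in B10.D2 and Cyp26a1 the higher. No member was called between females and males (0 of 56 called, background 0.243%, 7 with an unadjusted p under 0.05, and 0 called by DESeq2), the largest of those 7 differences being that of Cyp2c65 (log2 0.71 ± 0.25, higher in females, adjusted p = 0.26).

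In rat 9 of 41 tested members (22%) were called between SNT and sham, against 27.4% of all 13690 tested features. Of these, 2 were higher (background 12.3%) and 7 lower (background 15.1%). Cyp26b1 and Cyp2s1 rose, and the transferases Gsta3, Gstm6, Gsta1, Gstk1 and Gstm2 and the P450 genes Cyp2a3 and Cyp4f39 fell. The median log2 change was 0.06 over the tested members and 0.00 over all features. Summed P450 levels were 479 to 617 CPM in sham and 632 to 656 CPM in SNT libraries, and summed transferase levels 708 to 850 and 525 to 777 CPM. Much of the P450 rise lay in Cyp1b1 (mean 124 to 177 CPM, not called), Cyp26b1 (16.6 to 42.6 CPM) and Cyp2s1 (10.8 to 26.1 CPM).

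Gsta3, an alpha class transferase that also isomerises steroids, had the largest fall. Sham libraries 1 to 4 held 3.81, 3.78, 2.99 and 1.11 CPM, and SNT libraries 1 to 4 held 0.632, 0.0545, 0.0556 and 0.197 CPM. All SNT libraries lay below all sham libraries, and SNT libraries 2 to 4 were at or under the floor, with 167 counts in the sham and 15 in the SNT libraries (log2 -3.65 ± 0.63, adjusted p = 0.011). Gstm2 stood at 103, 109, 91.5 and 71.6 CPM in sham and at 78.6, 51.3, 43.3 and 52.9 CPM in SNT, where SNT library 1 exceeded sham library 4 (log2 -0.73 ± 0.19, adjusted p = 0.023). Gsta1 (97.4, 69.5, 78.2 and 68.2 CPM against 64.8, 30.9, 35.5 and 48.8 CPM) and Gstk1 of mitochondria and peroxisomes (35.0, 27.6, 28.8 and 20.7 CPM against 19.9, 14.9, 13.6 and 19.0 CPM) did not overlap (log2 -0.80 and -0.74, adjusted p = 0.027 and 0.019). Gstm6 fell from a mean of 6.35 to 2.52 CPM (log2 -1.34 ± 0.34, adjusted p = 0.020), and SNT library 1 (4.43 CPM) exceeded sham library 4 (4.23 CPM).

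Among the P450 genes, Cyp26b1 rose from 23.2, 14.3, 15.7 and 13 CPM in sham to 39.1, 52.4, 41.2 and 37.9 CPM in SNT (2.58-fold, log2 1.37 ± 0.19, adjusted p = 0.010). Cyp2s1, which accepts retinoids and fatty acid peroxides, rose from 10.9, 7.26, 9.9 and 15.2 to 21.8, 26.9, 26.3 and 29.2 CPM (2.41-fold, log2 1.27 ± 0.21, adjusted p = 0.011). Neither overlapped between the groups, sham library 4 and SNT library 1 included. Cyp4f39, which hydroxylates very long fatty acids, fell from 15.4, 27.6, 18.2 and 12.6 CPM to 11.3, 4.47, 3.39 and 5.37 CPM (log2 -1.59 ± 0.37, adjusted p = 0.016). Cyp2a3 fell from 2.98, 3.48, 3.13 and 2.15 CPM to 1.39, 0.817, 0.778 and 0.655 CPM (log2 -1.68 ± 0.28, adjusted p = 0.011).

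**Figure D5:**
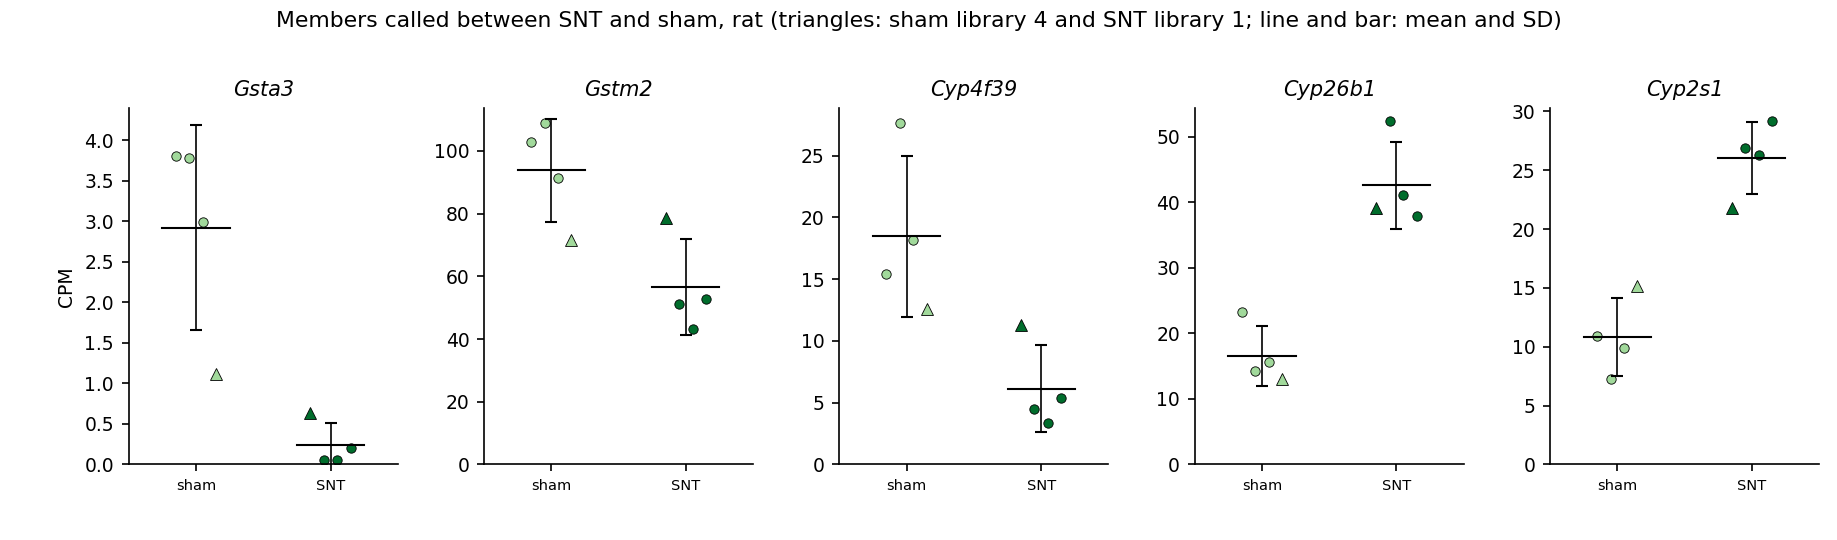
Level in CPM of Gsta3, Gstm2, Cyp4f39, Cyp26b1 and Cyp2s1 in each rat library, with mean and SD of the 4 sham and 4 SNT libraries. Triangles mark sham library 4 and SNT library 1. SNT and sham libraries overlap for Gstm2 alone.

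The libraries that stood apart touched the rat members. For 22 of 41 members sham library 4 was nearer to the mean of SNT libraries 2 to 4 than to that of sham libraries 1 to 3, and for 21 members SNT library 1 was nearer to the sham mean. Without both libraries, a choice made after seeing the data, 25 of 41 members (61%) were called, against 43.9% of 13892 features (21.1% higher and 22.8% lower), among them all 9 called before. Of the P450 genes 12 were then higher and 2 lower, and of the transferases 2 were higher and 9 lower. The 9 kept their direction. Leaving out libraries that lie between the groups tends to widen differences and narrow spreads, so these calls and changes add no independent support. The log2 change was 1.32 ± 0.20 (SE, 6 libraries) for Cyp26b1, 1.56 ± 0.17 for Cyp2s1, -1.04 ± 0.12 for Gstm2, -1.90 ± 0.23 for Gstm6, -1.08 ± 0.19 for Gsta1, -0.94 ± 0.16 for Gstk1 and -2.07 ± 0.25 for Cyp2a3. The fall of Cyp4f39 grew from 3.02-fold to 4.64-fold (log2 -2.21 ± 0.26). The fitted change of Gsta3 grew to -5.07 ± 0.41, and without SNT library 1 alone it was -4.79, values that depend on the prior count of the fit because the SNT libraries left were at or under the floor. Those called in addition included Cyp1b1 (log2 0.77 ± 0.16, adjusted p = 0.0043), Cyp4b1 (1.77 ± 0.30), Cyp2d3 (2.0 ± 0.25), Cyp27b1, which activates vitamin D (1.48 ± 0.29), Gstm1 (-0.73 ± 0.16) and Mgst1 (-0.72 ± 0.15). With all 8 libraries Cyp1b1 held 129, 83.6, 93.9 and 190 CPM in sham and 188, 170, 188 and 161 CPM in SNT, and was not called (log2 0.51, adjusted p = 0.12), its highest value being in sham library 4. Cyp26b1, Cyp2s1, Cyp4f39, Cyp2a3 and Gsta3 stayed called without any single library, whereas Gsta1, Gstk1, Gstm2 and Gstm6 lost their call in 5, 4, 6 and 5 of 8 such fits.

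The rat neuronal markers that had counts (5 of 9) summed to 6052 to 8819 CPM in sham and 3781 to 7451 CPM in SNT libraries. Of these 5, 3 were called lower (background 15.1%), Avil, Isl1 and Scn10a. Their means in sham and SNT were 1158 and 434, 112 and 52.6, and 631 and 136 CPM. Prph, the most abundant, stood at 4444 and 4578 CPM and Calca at 1020 and 292 CPM, and neither was called. The fibroblast markers (4 of 6) summed to 960 to 2092 and 1994 to 2951 CPM, with Lum and Mgp called higher. Lgi4 of satellite glia and Mag of Schwann cells were also called higher, and Alas2 of erythroid cells lower. The part of these markers in the rat results was not tested. Surgery, species, library chemistry and ganglion level differ together between the rat and mouse experiments, so no difference between the species was tested.

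Partner genes of these enzymes were read from lists of known roles. The counts below are to be read against the share of all features called: 11.5% higher and 10% lower in B10.D2 in sham libraries, 10.9% and 9.98% in SNI libraries, 4.82% higher and 4.87% lower after SNI in BALB/c, 2.1% and 2.48% for the same surgery in B10.D2, and 12.3% and 15.1% after SNT in rat. Of the 14 genes that supply P450 enzymes with electrons or haem, 2 were higher and 1 lower in B10.D2 sham libraries (Fdx1, the mitochondrial ferredoxin, log2 0.38, Pgrmc1 0.15, and Alas1, the first enzyme of haem synthesis, -0.24). In SNI libraries 2 were higher and 2 lower (Por, the microsomal reductase, log2 0.31, Fdx1 0.22, Fech -0.19 and Cyb5r1 -0.16). Injury moved 1 of 14 in each mouse strain (Hmox2 -0.17 in BALB/c, Cyb5r3 0.22 in B10.D2) and 1 of 6 tested in rat (Fdx1l -0.41).

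The first step of glutathione synthesis is catalysed by the ligase of Gclc and Gclm. Gclm, its regulatory subunit, fell after injury in both mouse strains (87.8 to 70.9 CPM, log2 -0.31 ± 0.06 in BALB/c, and 88.4 to 74.3 CPM, log2 -0.24 ± 0.06 in B10.D2) and in rat (119 to 65.6 CPM, log2 -0.86 ± 0.19). It was the 1 of 19 genes of glutathione synthesis and recycling called after injury in each mouse strain. In rat 2 of 13 were higher (the cystine carrier Slc7a11 log2 1.12 and Gpx7 0.69) and 3 lower (Gclm, Gclc and Gpx4, the last -0.65). Between strains 2 of 19 were higher and 6 lower in B10.D2 in sham and in SNI libraries, with Glrx at -0.63 and -0.74 and Chac1, which breaks glutathione down, at -0.84 and -1.11, whereas Ggct stood at 0.33 and 0.25, Ggt7 at 0.20 in sham and Gpx3 at 0.60 in SNI. Of 10 other enzymes with a transferase-like fold or of the Mgst superfamily, 3 rose in BALB/c SNI (Hpgds, the prostaglandin D synthase, 0.48, and the chloride channel protein Clic4 0.40) and 0 were called in B10.D2 SNI, 2 were lower between strains in sham (Ptges -0.32, Clic4 -0.26) and 1 in SNI (Clic4 -0.39), and in rat 2 of 6 rose (Clic4 0.98, Gstcd 0.52) and 1 fell (Gdap1 -1.02).

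Of 18 tested transcription factors that sense foreign compounds or oxidants, Ahr, the aryl hydrocarbon receptor, rose after injury in BALB/c (41.6 to 60.6 CPM, log2 0.54 ± 0.08, adjusted p = 0.00013) and in B10.D2 (30.2 to 39.4 CPM, log2 0.38 ± 0.08, adjusted p = 0.0077), and in rat (73.7 to 162 CPM, log2 1.13 ± 0.27, adjusted p = 0.016). It was lower in B10.D2 than in BALB/c (log2 -0.46 in sham and -0.62 in SNI). Bach1, a repressor of antioxidant response genes, rose by 0.54 and 0.53 on the log2 scale in BALB/c and B10.D2. In all, 4 rose and 1 fell in BALB/c, 2 rose in B10.D2, and 5 rose and 1 fell of 11 tested in rat (Maff 0.93, and the receptor repressor Ahrr -1.51). Between strains 3 were higher and 2 lower in sham (Rxrg 0.39, Tiparp 0.26, Arnt -0.23) and 3 higher and 3 lower in SNI (Ahrr 0.34, Tiparp 0.19, Arnt -0.27). Of 17 Nrf2 target enzymes outside the transferase families, 3 rose and 1 fell in BALB/c, 2 rose and 1 fell in B10.D2, and 2 of 11 fell in rat (Gclm and Gclc, -0.47). The aldo-keto reductase Akr1b8 rose by 1.17 ± 0.12 and 0.84 ± 0.12 on the log2 scale in the strains, Srxn1 by 0.39 in BALB/c and G6pdx by 0.17 in B10.D2. Between strains 1 was higher and 3 lower in sham (Tkt 0.23, Blvrb -0.49, Fth1 -0.39) and 1 higher and 5 lower in SNI (Tkt 0.24, Blvrb -0.40, Txnrd1 -0.36).

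Of 21 other conjugating and hydrolysing enzymes, 4 were higher and 3 lower in B10.D2 sham libraries (Maob 0.95, Fmo1 0.59, the thiopurine methyltransferase Tpmt -0.76, Ugt8a -0.59), 2 higher and 3 lower in SNI (Fmo1 0.66, Fmo5 0.40, Tpmt -0.79, Ugt8a -0.67), 1 fell in BALB/c SNI (Ephx1 -0.22), 0 were called in B10.D2 SNI, and 2 of 6 rose in rat (Maoa 0.64, Sult1a1 0.63). Of 10 tested efflux and uptake transporters, 2 were higher and 1 lower in B10.D2 in sham and in SNI (Slco2b1 0.55 and 0.53, Abcc1 0.12 and 0.26, Abcc3 -0.46 and -0.36). Slco2b1, a carrier of organic anions, rose in BALB/c SNI (0.42) and in rat (0.58), as 1 transporter of 10 and of 5, and 0 were called in B10.D2 SNI.

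Genes that make, carry or sense retinoic acid stand upstream of the Cyp26 enzymes. In mouse 1 of 14 was called in each injury comparison, Rara in BALB/c (log2 0.33) and the retinoic acid synthesising Aldh1a3 in B10.D2 (6.54 to 12.6 CPM, log2 1.06 ± 0.22, adjusted p = 0.0054). Aldh1a3 was also higher in B10.D2 than in BALB/c (log2 0.77 in sham and 1.48 in SNI), and Stra6 was higher in SNI (0.64). In rat 4 of 12 rose, among them the retinol carrier Stra6 (1.07), and Crabp1, which binds retinoic acid, fell (-1.08). Of 11 tested genes of sterol and steroid handling, 3 rose in BALB/c SNI and 1 in B10.D2 SNI. Star, which brings cholesterol to the mitochondrial P450 enzymes, rose 2.95 to 8.74 CPM in BALB/c (log2 1.57 ± 0.21) and 2.72 to 7.40 CPM in B10.D2 (1.51 ± 0.21), and Hsd3b7 rose by 0.46 in BALB/c. Between strains 2 were higher and 1 lower in sham (Srd5a1 0.52, Hsd17b4 0.12, Akr1c14 -1.18) and 1 each in SNI (Srd5a1 0.36, Akr1c14 -1.38), and in rat 4 of 6 rose and 2 fell (Tspo 1.53, Ch25h 1.15, Hsd17b10 -0.58, Hsd17b12 -0.56). Of 12 genes of arachidonate handling, 0 were called in either SNI comparison or between strains in sham. Between strains in SNI 1 was called (Mgll 0.16), and 1 of 6 rose in rat (Alox5 0.84). Of the 10 axon injury markers, 10 rose in BALB/c SNI, 9 in B10.D2 SNI and 6 of 7 tested in rat, with Sprr1a at 4.92, 5.05 and 1.92 on the log2 scale.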

How the data were processed

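Ribosomal RNA-depleted libraries of mouse DRG and poly-A libraries of rat DRG were sequenced with reads of 100 bases. The authors aligned them with STAR to mm10 and rn6 and deposited read counts per gene, made strand-specifically with HTSeq, for annotated genes and for their own long non-coding RNA models. The counts are raw and were used as deposited. The deposited result tables also hold the authors' own fold changes and p-values, which were not used; these tables served only to take gene symbols. Of the labelled mouse samples, 2 had no column and were not analysed here, and 0 per-sample columns were left unused. The samples without a column were a B10.D2 sham male and a BALB/c SNI female. The paper states that both were excluded for poorer read mapping and a larger pull on the fit (Cook's distance).

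Counts were tested with edgeR 4.0.16 in R 4.3.3 (TMM scaling, filterByExpr, quasi-likelihood F test, two-sided), with sex, strain and surgery and their interaction in mouse and surgery in rat. P-values were adjusted by Benjamini-Hochberg over all features tested in a comparison and called under 0.05. Strain differences are B10.D2 minus BALB/c, and the standard error of a log2 change is its size divided by the square root of F. Levels are CPM, and values at the floor of 3 counts cover counting error only. DESeq2 1.42.0, other scalings and filters, and fits without each library were the alternatives. The fit was tested on simulated counts with 200 changed genes. Whether rat title prefixes pair the samples was checked on their deviations from the group means and is given with the other alternatives.

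Members were named if called with a mean of at least 1 CPM, with values per library for the 4 largest changes of each comparison, and if among the 10 with the highest sham level. Partner lists gave up to 2 rises and 2 falls each. The values of 1 partner gene that this rule names are not reported here. The members and lists were chosen with earlier results of these data known. Mouse coordinates and exon lengths came from GENCODE M21, which matched 49326 of 49585 Ensembl identifiers. Reads that map to close paralogs may be left uncounted or split. Of 56 tested mouse members, 41 shared no 100-base stretch with another gene and 3 shared over 10% (Gstp2, Gstp1 and Gstt3). In rat, Gsta2 and Gsto2 each had 2 identifiers, and near-identical copies are uncertain. Each mouse library is 1 animal and each rat library a pool of 3.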

Additional observations from a re-analysis of the deposited data

Results flagged for a closer look

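In groups of 4 to 6 libraries, 1 library stood apart from the others by Dixon's test in 5 of 118 groups, among the 21 mouse and 17 rat members examined, and chance flags about 1 in 20 groups. B10.D2 sham library 88 held 92.6 CPM of Cyp2j6 (the others 89.1 to 89.9 CPM) and 75.3 CPM of Gstm5 (62.3 to 65.6 CPM). BALB/c SNI library 49 held 23.5 CPM of Gsta4 (28.4 to 29.0 CPM) and 74.4 CPM of Mgst3 (56.1 to 59.2 CPM). B10.D2 SNI library 89 held 11.3 CPM of Gstm2 (12.9 to 13.4 CPM).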

How the results depend on the processing

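No direction reversed in any alternative. Of the counts of members called, 164 alternatives stayed within 1.5 times the reported count and 10 did not, and of the values of single members 965 kept their side of the threshold and 86 lost it. With the strain effect averaged over sham and SNI libraries, 29 members were called in place of 18 and 19. With each strain fitted alone, 4 members were called in BALB/c SNI, and with at least 10 counts required in every library 1 member was called in B10.D2 SNI. The first pools more libraries, the second uses fewer, and the third tests fewer genes. In rat, 25 members were called with sham library 4 and SNT library 1 both left out. Leaving out 1 library at a time gave 12 to 18 members for the strain difference in sham, 16 to 20 in SNI, 5 to 8 for BALB/c SNI, 2 to 4 for B10.D2 SNI, 0 to 0 for the interaction and for sex, and 5 to 16 in rat, where 5 were called without sham library 1 or 3 or SNT library 2 or 3 and 16 without sham library 4. The cause of these rat changes was not tested. Rat sham and SNT samples with the same title prefix had correlations of their deviations of 0.050, -0.293, -0.114 and -0.094. Values from groups of so few libraries cannot show what the prefix stands for, and the labels do not give its meaning. The samples were not treated as pairs in the reported fit. With the prefix as a replicate block, 10 members were called, and all 9 reported members stayed called. Depth limits members under about 0.1 CPM in mouse and 0.251 CPM in rat, and the rat zeros limit what can be read there.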
